A study of Mus musculus with 37 samples.

Results

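The genes described here are Malat1, Kdm5a, Rest, H1f10 and Pabpn1, 5 genes whose products work in the nucleus, measured in mouse mammary glands under calorie restriction and wheel running. All probe sets that the platform annotation gives these symbols were taken, each apart, which made 14 of the 22690 probe sets on the array: 5 for Malat1, 1 for Kdm5a, 3 for Rest, 1 for H1f10 and 4 for Pabpn1. The genes were chosen by their measured difference between restricted and unrestricted mice on these same arrays. Every restriction value or call of these genes below is therefore a description and no test of them. Of the 14 probe sets, 12 had a mean signal above the lowest 25% of all probe sets. The 2 below it, Rest 1425566_at and 1425564_at, are given with that limit.

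The mice were female C57BL/6 animals, 9 weeks old at the start, studied for 6 weeks in 4 groups. The CR+EX group (9 mice) was under calorie restriction and had a running wheel, the CR group (9 mice) was under restriction with no wheel, the AL+EX group (9 mice) ate ad libitum and had a wheel, and the AL group (10 mice) ate ad libitum with no wheel. Restricted mice got 70% of the calories of the AL mice but 100% of the other nutrients, per the labels. Total RNA of each animal's pooled left and right thoracic glands went onto 1 biotin-labelled Affymetrix array, 37 in all, so a value averages over all cells of the gland, and fewer cells of a type and less RNA per cell cannot be told apart. No animal carried a transgene or a deletion, as far as the labels say.

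Malat1 is a long non-coding RNA held in nuclear speckles, the bodies where splicing factors collect, and it has been studied in mouse mammary tumour models with opposite reports on metastasis. Kdm5a removes methyl groups from lysine 4 of histone H3, a mark of active promoters, and it binds the retinoblastoma protein. Rest is a zinc finger repressor that recruits SIN3 and RCOR1 complexes and keeps neuronal genes silent outside the nervous system. H1f10 is a linker histone variant, one that binds the DNA between nucleosomes and is made outside S phase too, and Pabpn1 binds the poly(A) tail in the nucleus, sets its length and takes part in the choice of polyadenylation sites.

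The promoters of Malat1, whose probe sets held the largest lower differences, and of H1f10, the gene with a higher difference, are shown because these genes held the largest restriction differences in the 2 directions. Both come from RefSeq on build GRCm38.p6 and run from 250 bases before the annotated start to 50 bases after it. Malat1 lies on the minus strand at chr19:5802623-5802922 and H1f10 on the minus strand at chr6:87981433-87981732. Capitals mark the motif matches described next.
Malat1 promoter: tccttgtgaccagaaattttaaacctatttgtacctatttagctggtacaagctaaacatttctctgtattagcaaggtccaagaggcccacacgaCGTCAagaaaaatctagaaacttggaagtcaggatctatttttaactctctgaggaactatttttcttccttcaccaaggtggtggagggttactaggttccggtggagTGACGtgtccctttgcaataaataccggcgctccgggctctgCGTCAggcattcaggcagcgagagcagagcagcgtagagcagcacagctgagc
H1f10 promoter: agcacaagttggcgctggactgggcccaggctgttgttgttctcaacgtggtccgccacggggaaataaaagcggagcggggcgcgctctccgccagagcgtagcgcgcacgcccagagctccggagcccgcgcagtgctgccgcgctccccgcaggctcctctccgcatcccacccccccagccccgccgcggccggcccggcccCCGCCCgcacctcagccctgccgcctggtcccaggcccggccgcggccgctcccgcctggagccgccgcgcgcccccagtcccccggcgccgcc
The 5 motifs searched on both strands were the TATA box (TATAAA), the CCAAT box, the GC box (GGGCGG), the E-box (CACGTG) and the core of the cyclic AMP response element (TGACG). Malat1 held 3 TGACG matches, which began 3, 45 and 154 bases before the start, and no match to the other 4 motifs. The matches at 3 and 154 were on the opposite strand, and the one at 3 reached past the start. H1f10 held 1 GC box on the opposite strand, 44 bases before the start, and no other match. TGACG occurs in 20.8% and GGGCGG in 35.7% of all 32851 promoters of this length. The windows differed more in composition: G and C made up 77.7% of the H1f10 window with 40 CpG sites, and 47% of the Malat1 window with 10 CpG sites, beside medians of 52.7% and 7 over all promoters. A match here is a description of letters in a window and not a binding site.

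All differences below are log2 differences of signal after adding 16, with the standard error (SE) of a limma fit over 22626 probe sets. In the averaged restriction difference, which weights the mice with and without a wheel equally, 7 of the 14 probe sets had a Benjamini-Hochberg adjusted p under 0.05, 1 higher and 6 lower, and they covered all 5 genes. Over all probe sets 4.68% were called in that comparison (479 higher and 581 lower as deposited, but 672 higher and 258 lower after each array was centred on its median). Because the genes were chosen on restriction differences of these arrays, nothing is read from the share. In the averaged restriction comparison 4245 of the 22626 probe sets had an unadjusted limma p under 0.05. For CR against AL 1 of the 14 was called beside 0.053% of all probe sets. For CR+EX against AL+EX limma called 0 of the 14, beside 0.628% of all probe sets. In that comparison 6 of the 14 had an unadjusted limma p under 0.05, beside 2741 of all 22626. The 7 probe sets of the same genes that were not called had differences between -0.58 (Malat1 1452378_at) and -0.03 (Rest 1425566_at). Of the called probe sets Malat1 1418189_s_at (-1.39) lay nearest the threshold, and of those not called Malat1 1452378_at (-0.58). The latter was called (-0.56 ± 0.17) with the run of animal numbers as a block. For these genes a call only places a probe set against the threshold and is no evidence of a restriction difference.

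**Figure D1:**
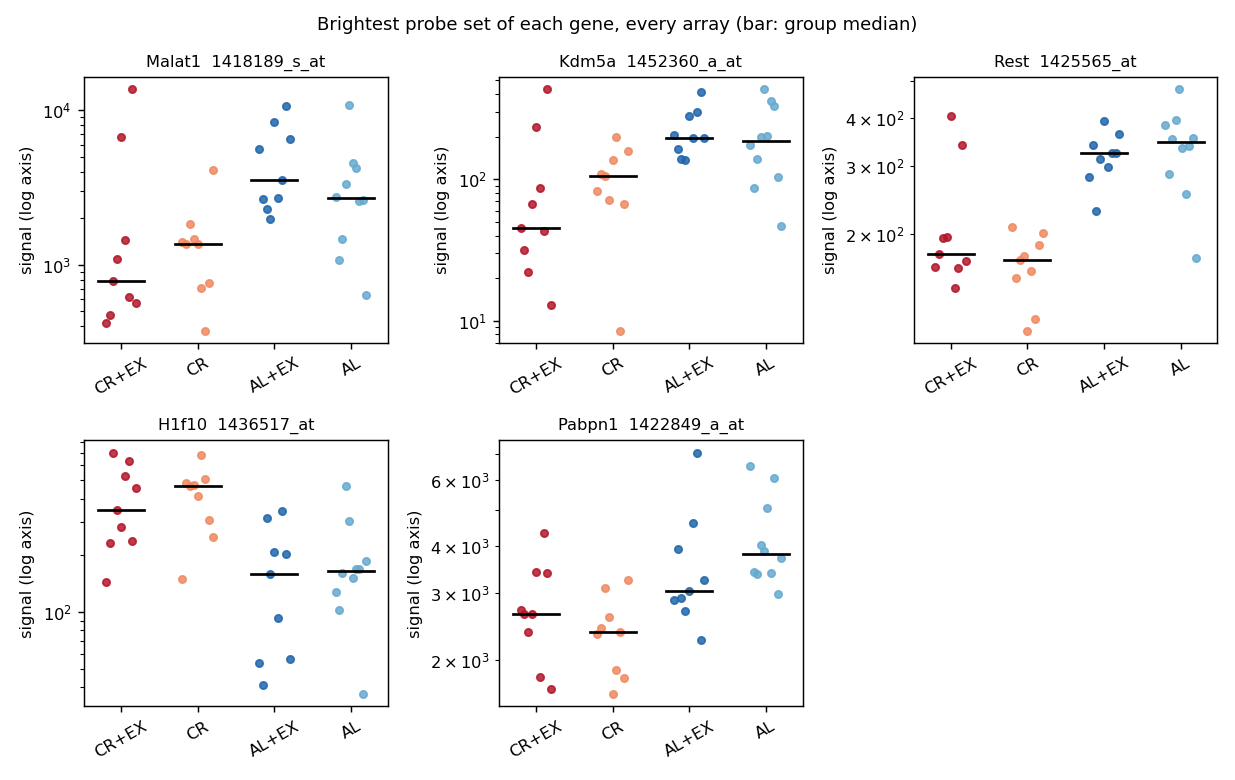
Signal of the probe set with the highest mean of each gene on every array (log axes, panels scaled apart), for CR+EX, CR, AL+EX and AL from left to right, with black bars at the group medians. Malat1, Kdm5a, Rest and Pabpn1 had lower medians in both restricted groups, H1f10 had higher ones, and the groups overlapped in each panel.

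Malat1 was lower in restricted glands in all 5 of its probe sets. The probe set with the highest mean, 1418189_s_at, had signals of 418 to 13692 with a median of 785 in CR+EX mice, against 1988 to 10595 with a median of 3545 in AL+EX mice. Without a wheel the signals were 373 to 4091 with a median of 1367 in CR mice, against 632 to 10892 with a median of 2687 in AL mice. In CR+EX 7 of 9 arrays lay below the lowest AL+EX array, while replicates 5 and 8 stood far above them at 6666 and 13692, and the next highest was 1449. The averaged restriction difference was -1.39 ± 0.38, which is 2.63-fold lower, with -1.71 ± 0.54 between the wheel groups and -1.08 ± 0.53 between the groups without a wheel. On the log2 scale the groups averaged 10.32 ± 1.75 in CR+EX, 10.27 ± 0.96 in CR, 12.03 ± 0.88 in AL+EX and 11.35 ± 1.15 in AL (SD, n = 9, 9, 9 and 10). The order was therefore AL+EX, AL, CR+EX and CR, and the gap between each pair of neighbours was smaller than the larger SD of the pair.

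Malat1 1438403_s_at had the widest spread of the 14 probe sets. Its signals were 95.7 to 10482 with a median of 220 in CR+EX mice, against 899 to 8827 with a median of 4090 in AL+EX mice. They were 8.4 to 2098 with a median of 594 in CR mice, against 25.5 to 15064 with a median of 2738 in AL mice. All 9 CR arrays lay below the AL median, and 6 of 10 AL arrays lay above the highest CR array, but the lowest AL array (replicate 10) was below all but the lowest CR array. The averaged restriction difference was -2.48 ± 0.64, with an SD over the arrays of 2.40 in CR+EX, 2.09 in CR, 1.05 in AL+EX and 2.43 in AL.

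The 3 other Malat1 probe sets differed by less or followed the first. Probe set 1418188_a_at had a median of 305 in CR+EX against 1135 in AL+EX and of 416 in CR against 1047 in AL, and its difference was -1.44 ± 0.37. For 1452378_at the medians were 189 in CR+EX against 301 in AL+EX and 204 in CR against 387 in AL, with a difference of -0.58 ± 0.22. For 1427285_s_at they were 123 in CR+EX against 216 in AL+EX and 160 in CR against 167 in AL, with a difference of -0.52 ± 0.30. After group means were subtracted, the 10 pairs of Malat1 probe sets correlated across the 37 arrays between 0.38 and 0.97. The highest value joined 1418189_s_at and 1418188_a_at, which the annotation ties to the same sequence record as probe set 1418187_at of Ramp2, a receptor activity-modifying protein. The Ramp2 probe set differed by 0.03 ± 0.08 under restriction. With group means left in, it correlated with Malat1 1418189_s_at at -0.27 over the arrays, while Malat1 1418188_a_at did so at 0.98. The Ramp2 signal therefore did not follow that of these Malat1 probe sets.

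Kdm5a, with 1 probe set, was also lower in restricted glands. Its signals were 12.9 to 431 with a median of 45.4 in CR+EX mice, against 136.3 to 414 with a median of 197 in AL+EX mice. They were 8.5 to 197 with a median of 106 in CR mice, against 46.8 to 433 with a median of 187 in AL mice. As with Malat1, 7 of 9 CR+EX arrays lay below the lowest AL+EX array and replicates 5 and 8 stood above them, at 233 and 431. The averaged difference was -1.16 ± 0.29, which is 2.24-fold lower, with -1.47 ± 0.42 with a wheel and -0.86 ± 0.41 without. The group means on the log2 scale were 6.37 ± 1.28 in CR+EX, 6.71 ± 0.91 in CR, 7.84 ± 0.50 in AL+EX and 7.57 ± 0.89 in AL, and no 2 neighbours in the order of these levels lay further apart than the larger of their SDs.

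The Kdm5a probe set is dim enough that the constant added before the logarithm mattered, with differences from -1.41 when 1 was added to -0.81 when 64 was added. Of 18 measured genes listed as KDM5 relatives and SIN3 complex partners, 2 were called lower under restriction and 0 higher. The 18 include Kdm5d (0.11), whose signal was in the lowest 25% of all probe sets. In all, 3 of the 18 had an unadjusted limma p under 0.05, beside 4245 of 22626 probe sets. Kdm5b, a second demethylase of the same mark, fell by 0.49 ± 0.11 (limma adjusted p = 0.0049) but was not called when the 15 lymphocyte-rich arrays were left out, and Ing1, a reader of methylated lysine 4 in the SIN3 complex, fell by 0.38 ± 0.11 (adjusted p = 0.028). Ing1 was called in only 6 of 11 other settings and in neither rescaling, median centring or quantile normalization. Taking each gene by its probe set with the highest mean, 2.4% of 12393 genes were called higher and 2.75% lower in this comparison. The median of the list was -0.12 beside -0.03 over all genes. Among 10 other genes listed with the histone demethylases 1 was called lower and 0 higher, with 4 at an unadjusted limma p under 0.05. It was Kdm3a, which acts on lysine 9 of histone H3, at -0.36 ± 0.09 (adjusted p = 0.011). The list median was -0.17, and the 10 include Jarid2 (-0.30), a relative with no known demethylase activity. Kdm3a was not called with median centring or with the actin ratio as a covariate.

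Rest 1425565_at was lower in restricted glands with the least spread among the probe sets of highest mean. Its signals were 145 to 404 with a median of 178 in CR+EX mice, against 230.4 to 393 with a median of 325 in AL+EX mice. They were 113 to 209 with a median of 172 in CR mice, against 173 to 475 with a median of 346 in AL mice. Without a wheel 9 of 10 AL arrays lay above the highest CR array, and AL replicate 10, at 173, was the exception. With a wheel 7 of 9 CR+EX arrays lay below the lowest AL+EX array, and replicates 5 and 8 again stood above them, at 404 and 339.9. The averaged difference was -0.76 ± 0.12, which is 1.69-fold lower, with -0.59 ± 0.17 with a wheel and -0.93 ± 0.16 without. Group means were 7.79 ± 0.48 in CR+EX, 7.49 ± 0.28 in CR, 8.38 ± 0.21 in AL+EX and 8.42 ± 0.38 in AL, so both unrestricted groups lay above both restricted groups. The gap of 0.59 between AL+EX and CR+EX exceeded the SD of each, while AL and AL+EX, and CR+EX and CR, were closer than the larger SD of each pair.

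The other Rest probe sets had little signal. Probe set 1425566_at had medians of 13.8 in CR+EX, 12.5 in CR, 16.1 in AL+EX and 14.6 in AL, with a difference of -0.03 ± 0.20, and 1425564_at had medians of 4.4, 4.8, 5.9 and 6.35 in the same order, with a difference of -0.18 ± 0.11. They correlated with 1425565_at at -0.00 and 0.07 over the arrays after group means were subtracted. The lower level of Rest therefore rests on 1 probe set of 3. Of 13 measured corepressor partners 0 were called by limma, and the list median was -0.17. An unadjusted limma p under 0.05 was held by 3 of them, beside 4245 of 22626 probe sets. The smallest p was that of Kdm1a, the lysine 4 demethylase of the RCOR1 complex, at -0.31 ± 0.10 (limma adjusted p = 0.063). Of 25 measured neuronal genes known as Rest targets 0 were called by limma, with 2 at an unadjusted p under 0.05, and the median difference was -0.02. Of these 25, 12 had signals in the lowest 25% of all probe sets. Among the 12 was the gene with the smallest p, Chgb, a granin of secretory granules, at -0.39 (limma adjusted p = 0.21). Over all 12393 genes 2.4% were called higher and 2.75% lower, with a median of -0.03. Beside those shares, nothing about the partners or targets is read from 0 calls.

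H1f10 was higher in restricted glands. The signals of its probe set were 143 to 702 with a median of 347 in CR+EX mice, against 40.7 to 342 with a median of 159.6 in AL+EX mice. They were 150.1 to 685 with a median of 468 in CR mice, against 36.6 to 467 with a median of 164 in AL mice. The groups overlapped, yet 5 of 9 arrays in each restricted group lay above the highest array of its unrestricted counterpart. The averaged difference was 1.26 ± 0.25, which is 2.39-fold higher, with 1.33 ± 0.36 with a wheel and 1.19 ± 0.35 without. The group means were 8.53 ± 0.72 in CR+EX, 8.64 ± 0.62 in CR, 7.20 ± 1.01 in AL+EX and 7.46 ± 0.84 in AL, with a gap of 1.07 between CR+EX and AL that exceeded both SDs.

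Of the 4 other linker histones measured, 3 had signals in the lowest 25% of all probe sets and were not called. The remaining one, H1f2, a replication-coupled linker histone, was called lower, by 0.70 ± 0.15 (limma adjusted p = 0.0042), beside 2.75% of 12393 genes called lower. The median of the 4, mostly from those dim probe sets, was -0.06. Of 11 measured histone variants and linker histone competitors 0 were called by limma, and their median was -0.11. An unadjusted limma p under 0.05 was held by 4 of them, beside 4245 of 22626 probe sets. H1f2 was called lower in 11 of 11 other ways of processing, median centring and quantile normalization among them. The lists were written with earlier results of these data known and are counts only.

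**Figure D2:**
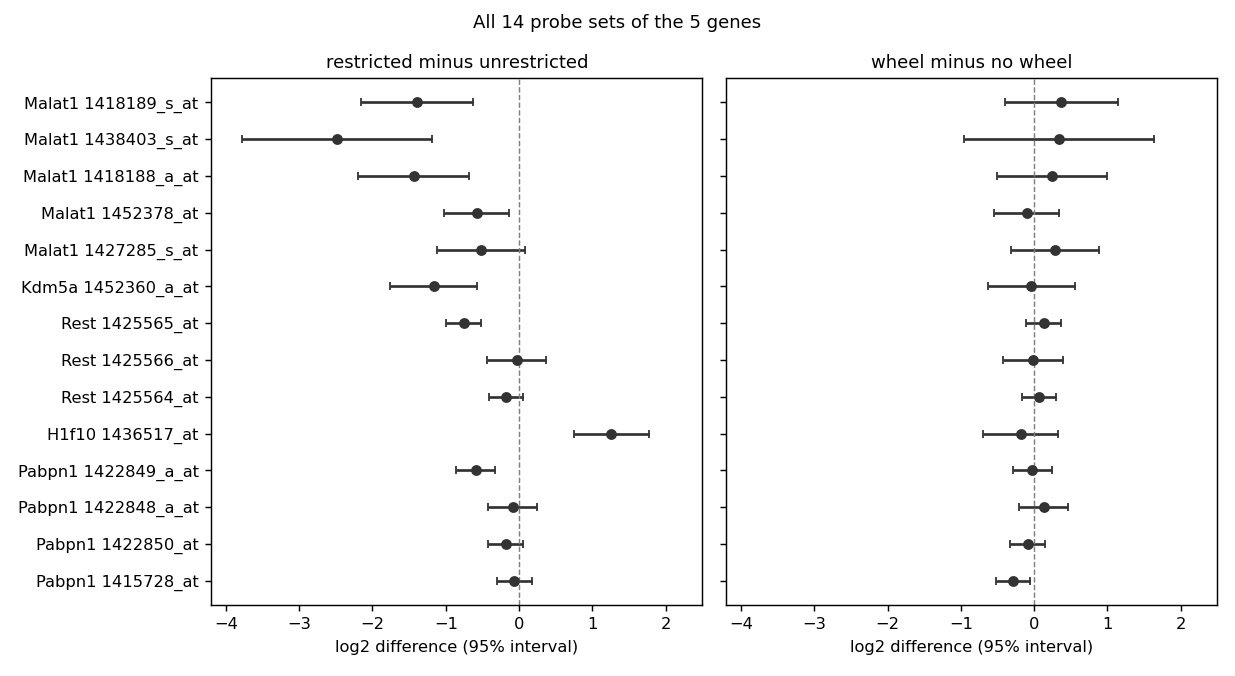
Log2 difference with its 95% interval for all 14 probe sets, restricted minus unrestricted on the left and wheel minus no wheel on the right. On the left 13 of 14 values are below 0, from -2.48 to -0.03, and H1f10 is at 1.26. On the right all values lie between -0.29 and 0.37.

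Pabpn1 was lower in restricted glands in its probe set with the highest mean, 1422849_a_at. The signals were 1673 to 4344 with a median of 2648 in CR+EX mice, against 2252 to 7078 with a median of 3042 in AL+EX mice. They were 1620.4 to 3256 with a median of 2368 in CR mice, against 2994 to 6512 with a median of 3799.6 in AL mice. Without a wheel 9 of 10 AL arrays lay above the highest CR array and 7 of 9 CR arrays below the lowest AL array, while the 2 wheel groups overlapped for most of their range. The averaged difference was -0.59 ± 0.13, which is 1.51-fold lower, with -0.36 ± 0.19 with a wheel and -0.82 ± 0.18 without. The group means were 11.39 ± 0.44 in CR+EX, 11.19 ± 0.34 in CR, 11.75 ± 0.49 in AL+EX and 12.01 ± 0.38 in AL, and neighbours in the order of these levels differed by less than the larger of their SDs.

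The 3 other Pabpn1 probe sets, none of them dim, differed less. Probe set 1422848_a_at had medians of 1983 in CR+EX, 2023 in CR, 2089 in AL+EX and 1982 in AL, and its difference was -0.09 ± 0.16. For 1422850_at the medians were 731 in CR+EX, 828.9 in CR, 924 in AL+EX and 1023 in AL, with a difference of -0.19 ± 0.11, and for 1415728_at they were 675, 823, 752 and 853 in the same order, with -0.06 ± 0.12. The 4 probe sets correlated in pairs between 0.06 and 0.75 after group means were subtracted. With run means also removed, 1422849_a_at correlated with 1422848_a_at at 0.30, against 0.06, and with 1422850_at at 0.47, against 0.23. Its correlation with 1415728_at went from 0.18 to 0.14, and the highest pair, 1422848_a_at and 1422850_at, went from 0.75 to 0.49. Why the probe sets varied apart was not tested.

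**Figure D3:**
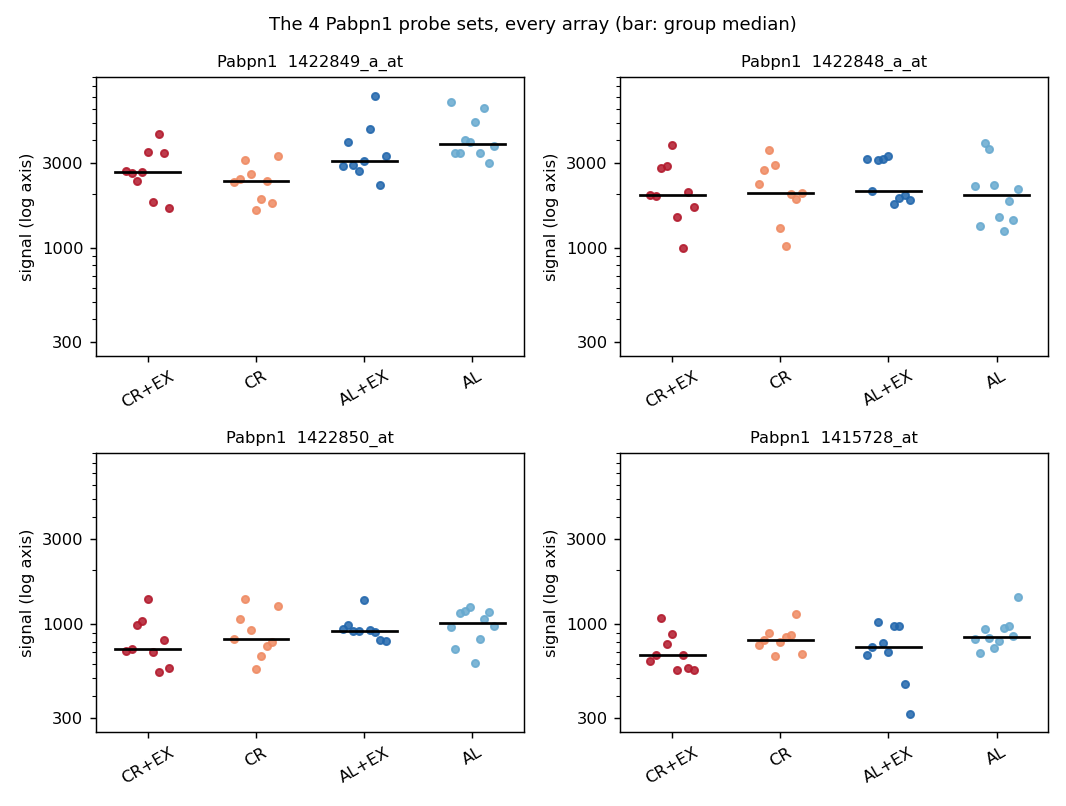
Signal of the 4 Pabpn1 probe sets on every array (log axes with a common range), for CR+EX, CR, AL+EX and AL from left to right, with black bars at the group medians. The medians of 1422849_a_at run from 2368 in CR to 3799.6 in AL, while those of 1422848_a_at lie between 1982 and 2089.

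The ratio of actin probe sets near the 3′ and the 5′ end of the transcript, a control for RNA integrity and labelling, moved with Pabpn1 1422849_a_at. Its medians were 1.08 in CR+EX, 1.01 in CR, 1.15 in AL+EX and 1.36 in AL. After group means were subtracted it correlated with the probe set over 37 arrays at r = 0.59 and rho = 0.63 (permutation test, adjusted over 20 relations, p = 0.0006 and 0.00053), at r = 0.60 without the 2 arrays of most extreme ratio. Within the 4 runs of animal numbers r was 0.40, 0.51, 0.79 and 0.13. With the ratio as a covariate, a setting chosen after seeing the data, the restriction difference was -0.38, against -0.59 without it, and the probe set was no longer called. No other probe set of highest mean correlated with this ratio beyond the adjusted p of 0.05, and its part in the lower Pabpn1 signal was not tested. Of 19 measured genes of poly(A) binding and 3′ end formation 2 were called lower under restriction and 0 higher, beside 2.75% and 2.4% of 12393 genes. In either direction 7 of the 19 had an unadjusted limma p under 0.05, beside 4245 of 22626 probe sets. The list median was -0.10. The called genes were Fip1l1 and Wdr33, both subunits of the cleavage and polyadenylation specificity factor. They fell by 0.38 ± 0.10 (limma adjusted p = 0.023) and 0.30 ± 0.08 (adjusted p = 0.029). Fip1l1 was called in 7 and Wdr33 in 6 of 11 other settings. Neither was called with median centring, with quantile normalization, with the actin ratio as a covariate or without the arrays of high Gapdh ratio.

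A list of nuclear RNAs and nuclear body proteins had 18 measured entries, with a median restriction difference of -0.14. Of these, 2 were called lower and 0 higher, beside 2.75% and 2.4% of 12393 genes. In either direction 7 had an unadjusted limma p under 0.05, beside 4245 of 22626 probe sets. The 18 include Nckap1 (0.11), which is no nuclear RNA or nuclear body protein and was matched through a synonym of the listed H19. H19 itself has no value here. Son, a scaffold protein of the speckles in which Malat1 resides, fell by 0.44 ± 0.09 (limma adjusted p = 0.0023) and was called in 11 of 11 other settings. Neat1, the RNA at the core of paraspeckles and a chromosomal neighbour of Malat1, fell by 0.38 ± 0.10 (adjusted p = 0.017), but was not called in 3 of the 11 settings: with median centring, with the actin ratio as a covariate, or when the 15 arrays rich in B lymphocyte transcripts were left out.

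The wheel comparisons were not used to choose the genes and were tested. They share arrays with the restriction differences that were used. In the averaged wheel comparison limma called 0 of the 14 probe sets, as it called 0% of all probe sets (635 of them at an unadjusted p under 0.05). The differences ran from -0.29 to 0.37, and 12 of the 14 95% intervals lay within 1 log2 unit of 0. The smallest unadjusted p among the 14 was 0.018, for Pabpn1 1415728_at at -0.29 ± 0.12 with an interval from -0.52 to -0.05 (limma adjusted p = 0.9997). For the probe sets of highest mean the wheel differences were 0.37 ± 0.38 for Malat1, -0.04 ± 0.29 for Kdm5a, 0.13 ± 0.12 for Rest, -0.19 ± 0.25 for H1f10 and -0.03 ± 0.13 for Pabpn1. Within the 4 runs of animal numbers the Malat1 value was -0.22, -0.01, 0.07 and 1.67, so the pooled value came mainly from the last run. The Malat1 interval, from -0.40 to 1.14, still allows a higher level of more than 1 log2 unit, so the data do not show that the wheel left Malat1 alone. Over the 8 gene lists used here, 0 of 118 entries were called by limma in the averaged wheel comparison, with 2 at an unadjusted p under 0.05, and the list medians lay between -0.06 and 0.07. The 118 include Nckap1, matched through a synonym of H19.

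Split by diet, limma called 0 of the 14 probe sets for CR+EX against CR, with 0 of them at an unadjusted p under 0.05 (0% of all called, 305 at an unadjusted p under 0.05) and 0 for AL+EX against AL, with 1 of them at an unadjusted p under 0.05 (0% of all called, 1279 at an unadjusted p under 0.05). The difference for Malat1 1418189_s_at was 0.05 ± 0.54 under restriction and 0.69 ± 0.53 ad libitum. Both split comparisons share arrays with restriction contrasts that may have chosen the genes, so their values are not independent of the choice. Whether the restriction difference depended on the wheel is given without a test for the members, since restriction contrasts that may have chosen them enter the interaction. It was -0.63 ± 0.76 for Malat1 1418189_s_at (interval -2.17 to 0.90), -0.60 ± 0.59 for Kdm5a (-1.79 to 0.58) and 0.15 ± 0.51 for H1f10 (-0.88 to 1.17). For Rest 1425565_at it was 0.34 ± 0.24 and for Pabpn1 1422849_a_at 0.46 ± 0.26. Over all probe sets limma called 0% (749 at an unadjusted p under 0.05). These wide intervals leave sizes close to those of the restriction differences themselves within reach.

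**Figure D4:**
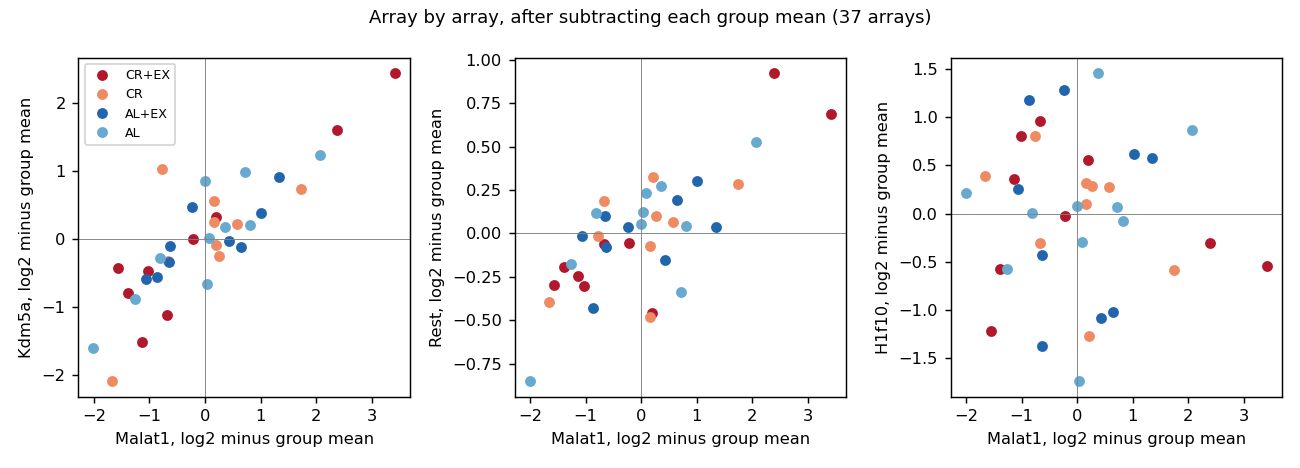
Kdm5a, Rest and H1f10 against Malat1, each by its probe set of highest mean, as log2 values minus the group mean, 1 point per array (37 arrays), coloured by group. Kdm5a (r = 0.85) and Rest (r = 0.73) follow Malat1 along a rising band, with CR+EX replicates 5 and 8 at its upper end, and H1f10 (r = -0.04) does not.

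Within groups, Malat1, Kdm5a and Rest varied together from array to array. After group means were subtracted, Malat1 1418189_s_at and Kdm5a correlated over 37 arrays at r = 0.85 and rho = 0.79 (permutation test with 100000 draws, p = 1e-05 for both, the smallest they can give, adjusted over 20 relations to 0.0001 and 0.0002). Without CR+EX replicates 5 and 8, the 2 arrays farthest from the median of Malat1, r was 0.77, and within the 4 runs it was 0.86, 0.94, 0.70 and 0.97. Malat1 and Rest 1425565_at correlated at r = 0.73 and rho = 0.62 (permutation test, adjusted p = 0.0001 and 0.0005), at r = 0.62 without the same 2 arrays, and within the runs at 0.61, 0.88, 0.11 and 0.86, so run 3 did not share the relation. Kdm5a and Rest correlated at r = 0.61 and rho = 0.43 (adjusted p = 0.0005 and 0.041). The arrays share their scaling and labelling, and the part of these in the relation was not tested.

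H1f10 stood outside this relation. Its correlations with Malat1, Kdm5a, Rest and Pabpn1 were -0.04, 0.05, -0.17 and 0.02, with adjusted permutation p-values of 0.54 to 0.93. Pabpn1 1422849_a_at correlated with Rest at r = 0.32, with Kdm5a at 0.24 and with Malat1 at 0.19 (adjusted permutation p = 0.17, 0.35 and 0.49). The other Pabpn1 probe sets, 1422848_a_at, 1422850_at and 1415728_at, gave 0.37, 0.53 and -0.21 with Rest in that order. With Kdm5a they gave -0.001, 0.25 and -0.20, and with Malat1 0.19, 0.40 and -0.35. These further values were not tested. The ratio of Gapdh probe sets near the 3′ and the 5′ end correlated with Malat1 at r = -0.39 and rho = -0.40 (adjusted p = 0.069 and 0.059), which misses the threshold.

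The genes most like each of the 5 in this array-to-array variation were sought among 9967 genes by the same group-centred correlation over 37 arrays. For Malat1 they were Akap9, a scaffold for protein kinase A, at 0.87, then Kdm5a, Resf1, a retroelement silencing factor, at 0.83 and Ubxn4 at 0.76. For Kdm5a they were Malat1, Resf1 at 0.83, Akap9 at 0.80 and Sp1, a factor that binds GC boxes, at 0.76. For Rest they were Malat1, Ubxn4 at 0.68, Akap9 at 0.67 and Efcab14 at 0.67. Malat1 was the nearest gene of both Kdm5a and Rest, and Akap9 stood in the lists of all 3. After run means were also removed the values for Malat1 were 0.88 (Akap9), 0.88 (Kdm5a), 0.85 (Resf1) and 0.73 (Ubxn4). For H1f10 the nearest were Tbc1d13 at 0.69, Six5 at 0.68, Itga7 at 0.67 and Mlf2 at 0.67, which dropped to 0.36, 0.53, 0.27 and 0.45 with run means removed. For Pabpn1 they were Cntd1 at 0.77, Cdcp1 at 0.70, Epb41l4b at 0.69 and Rnf103 at 0.69, which were 0.81, 0.71, 0.72 and 0.69 with run means removed.

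**Figure D5:**
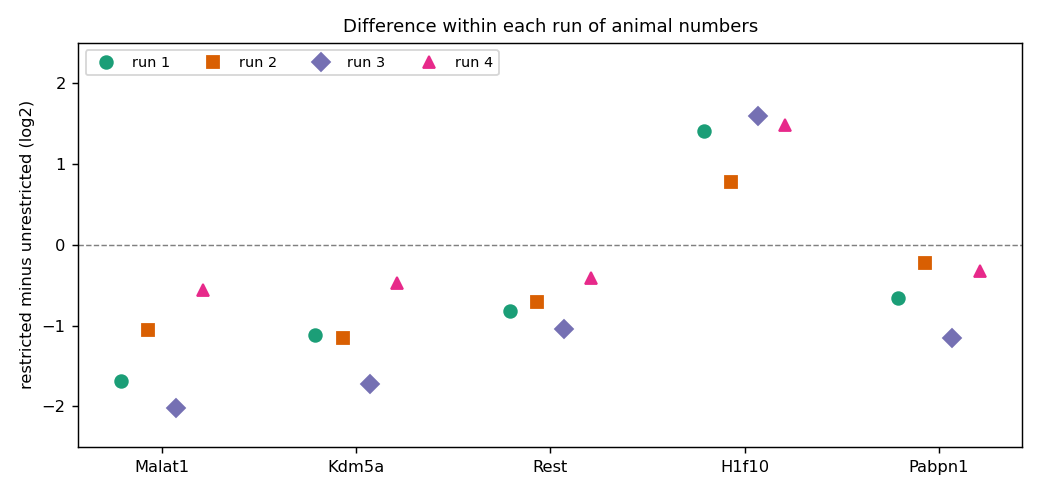
Restricted minus unrestricted log2 difference within each of the 4 runs of animal numbers, for the probe set of highest mean of each gene. All 4 values lie below 0 for Malat1, Kdm5a, Rest and Pabpn1 and above 0 for H1f10, and run 4 holds the smallest difference of Malat1, Kdm5a and Rest.

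The animal numbers in the labels were cut at every 24 numbers, which gave 4 runs of 8, 11, 10 and 8 arrays, each with mice of all 4 groups. The labels do not name these runs or call them batches. Run 2 ended at number 48 and run 3 began at 50, so that border is no gap in the numbers. The restriction difference of Malat1 1418189_s_at within runs 1 to 4 was -1.69, -1.05, -2.02 and -0.56. That of Malat1 1438403_s_at was -3.01, -2.40, -4.06 and 0.12, so the last run did not show it. Kdm5a had -1.11, -1.15, -1.72 and -0.47, and Rest 1425565_at had -0.82, -0.71, -1.05 and -0.41. H1f10 had 1.41, 0.77, 1.59 and 1.48, and Pabpn1 1422849_a_at had -0.65, -0.23, -1.15 and -0.32. The sign was shared by the 4 runs for each gene's probe set of highest mean, and the largest of the 4 differences was more than 2 times the smallest for each of them.

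Of the whole series, 15 arrays (3 CR+EX, 4 CR, 4 AL+EX and 4 AL) stood apart by a mean log2 level of 8.11 to 10.3 over 9 measured B lymphocyte genes, against 6.72 to 7.52 on the other 22, and all 8 arrays of run 4 were among them. The median Malat1 1418189_s_at signal was 2584 on those 15 arrays and 1905 on the others, and that of H1f10 was 169.9 and 329.5. Skeletal muscle genes had median list levels of 14.1, 14.1, 14.2 and 14.2 in CR+EX, CR, AL+EX and AL glands, so the thoracic gland samples held muscle RNA beside that of the gland. Luminal epithelial genes had median list levels of 9.85 in CR+EX, 9.95 in CR, 10.1 in AL+EX and 10.3 in AL, and adipocyte genes 13.2, 13.1, 12.9 and 13.1 in the same order. Their part in the differences was not tested. Without the 15 arrays the restriction differences were -1.47 for Malat1 1418189_s_at, -1.10 for Kdm5a, -0.86 for Rest 1425565_at, 1.24 for H1f10 and -0.66 for Pabpn1 1422849_a_at. The Gapdh ratio was above 2 on 5 arrays (2 CR+EX and 3 AL), and without them the differences were -1.27 for Malat1 1418189_s_at and -1.08 for Kdm5a, which were then no longer called. No 2 arrays held identical values, and p-values measure the spread between animals.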

How the data were processed

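Mammary gland RNA of 37 mice was measured on 37 Affymetrix arrays, 1 per animal. The values are signal intensities on a linear scale that the authors made with GCOS version 1, per the submitters' processing notes, and deposited as 1 table. The trimmed mean of the deposited intensities (2% cut at each end) was 500.165 to 500.23 on every array, so a rise in some probe sets lowers others. Of 22690 probe sets, 64 Affymetrix controls were left out, and 22626 were fitted as log2(signal + 16). Group means were fitted with limma 3.58.1 (R 4.3.3, eBayes with a trend, 33 residual degrees of freedom), and p-values were adjusted by Benjamini-Hochberg over all of them. The annotation gives 20380 probe sets 1 gene symbol, 691 several and 1555 none; the 14 members have 1 each. Tested on simulated data with independent normal noise and 200 shifted probe sets, the fit found 54.4% of shifts of 0.5 and 93.4% of shifts of 1 in the averaged restriction contrast. The median residual SD over all probe sets was 0.42. Among the probe sets of highest mean it was 1.23 for Malat1, 0.94 for Kdm5a, 0.81 for H1f10, 0.35 for Rest and 0.42 for Pabpn1. The shares found therefore do not apply to Malat1, Kdm5a and H1f10. The detection limit of each array is unknown, and their number limits the precision.

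The members and gene lists were chosen with earlier results of these data known. Every probe set of the 5 genes was named. Of each list the called genes (up to 4), or else the gene with the smallest p, were named, and of each gene the 4 most alike. Genes were taken by the probe set with the highest mean. Replicates were numbered in accession order. Runs were made by cutting the animal numbers at every 24 numbers. The alternatives were an added constant of 1 or 64, median centring, quantile normalization, no variance trend, no dim probe sets (lowest 25%), runs of animal numbers as a block, the Gapdh or actin 3′ to 5′ ratio as a covariate (the actin ratio chosen after seeing the data), and fits without arrays rich in B lymphocyte transcripts, without those of a Gapdh ratio above 2 and without each array in turn. Promoters came from RefSeq's table, which held 3 of the 5 genes.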

Additional observations from a re-analysis of the deposited data

Results flagged for a closer look

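Each of the 14 probe sets was examined in each of the 4 groups for an array that stood apart, by the gap between the extreme array and its neighbour as a share of the range on the log2 scale. Of 56 such tests 8 passed Dixon's critical value, and chance alone passes about 1 in 20 (5%). In AL mice, replicate 5 had the highest Malat1 1427285_s_at signal, 1175 against 324 for the next array (0.506 of the range), and replicate 10 the highest Pabpn1 1415728_at signal, 1417 against 982 (0.515). In CR mice, replicate 7 had the lowest Kdm5a signal, 8.5 against 67.3 for the next lowest (0.565). In AL+EX mice, replicate 5 had the highest Pabpn1 1422850_at signal, 1359.8 against 989.9 (0.610). The other 4 concern the dim Rest probe sets. For 1425566_at they were AL+EX replicate 9, 219.9 against 20.0 (0.805), and AL replicate 3, 36.8 against 21.8 (0.474). For 1425564_at they were CR replicate 9, 11.4 against 5.0 (0.650), and AL+EX replicate 9, 48.8 against 17.2 (0.533). CR+EX replicates 5 and 8, which were high together in Malat1, Kdm5a and Rest, did not pass, since a pair of high arrays hides the gap to each.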

How the results depend on the processing

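No paired analysis was possible because the labels give the groups no shared replicate numbers, so the run of animal numbers served as a block. The restriction differences of the 5 probe sets of highest mean kept their sign in 11 of 11 alternatives and in 37 of 37 fits without 1 array, within -1.61 to -1.27 (Malat1), -1.41 to -0.81 (Kdm5a), -0.86 to -0.63 (Rest), 1.02 to 1.37 (H1f10) and -0.66 to -0.38 (Pabpn1). The calls of these genes are a description, since the genes were chosen on these differences. All 7 calls stayed without any 1 array. They lapsed without the arrays of high Gapdh ratio for 3 Malat1 probe sets and Kdm5a, and with the actin ratio as a covariate for Pabpn1 1422849_a_at and Malat1 1438403_s_at (-2.08). Calls were gained by Malat1 1452378_at with the run block (-0.56) and the Gapdh covariate (-0.70), against -0.58 in the main fit. Malat1 1427285_s_at gained one with the actin covariate (-0.99, against -0.52). The causes were not tested.

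Probe sets called over the whole table moved more. For averaged restriction (1060) the run block gave 2707 and leaving out the arrays high in B lymphocyte genes 499; median centring gave 672 higher and 258 lower, and quantile normalization 568 and 425, against 479 and 581. For CR minus AL (12) the Gapdh covariate gave 23, the actin covariate 7, median centring 29, quantile normalization 20, the run block 893, leaving out the lymphocyte-rich arrays 0, leaving out the high Gapdh arrays 4 and dropping the dimmest 25% of probe sets 59. Without 1 array each it ran from 6 (AL replicate 7, also CR replicate 7) to 111 (CR replicate 1). AL replicates 2 and 8 and CR replicates 3 and 6 gave 7, AL replicate 10 gave 21, AL+EX replicate 5 26, AL replicate 9 34, AL+EX replicate 6 and CR+EX replicate 7 35, AL replicate 5 41 and AL+EX replicate 7 46. For CR+EX minus AL+EX (142) the Gapdh covariate gave 278, the actin covariate 259, the run block 826 and the fit without lymphocyte-rich arrays 12. Without 1 array it ran from 50 (AL+EX replicate 7) to 278 (AL+EX replicate 5), with 59 to 67 without CR+EX replicates 3, 4, 6 and 7 or AL+EX replicate 6, 224 without AL+EX replicate 3 and 244 without CR+EX replicate 5 or 8. For AL+EX minus AL it was 0 to 1 (AL replicate 8).

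Wheel differences, none called in any setting, crossed 0 in places. Without the lymphocyte-rich arrays they were -0.14 (Malat1 1418189_s_at), -0.23 (1418188_a_at), -0.76 (1438403_s_at), 0.036 (Pabpn1 1422849_a_at), 0.068 (1422850_at), -0.057 (Rest 1425564_at) and 0.0023 (1425566_at), and the H1f10 interaction was -0.13. Rest 1425566_at had 0.012 with 64 added and 0.0079 with the run block, Kdm5a had 0.0031 with 64 added and 0.045 without the high Gapdh arrays, and Pabpn1 1422849_a_at had 0.040 without those arrays and 0.00037 with the actin covariate. Leaving out 1 array each gave -0.19 to 0.055 (Kdm5a), -0.18 to 0.0084 (Malat1 1452378_at), -0.094 to 0.013 (Pabpn1 1422849_a_at), -0.025 to 0.089 (Rest 1425564_at), -0.18 to 0.070 (1425566_at) and -0.026 to 0.34 (H1f10 interaction).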

Other observations

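Run 4 of the animal numbers, which holds 8 arrays, held the largest differences between mice with and without a wheel for Malat1 1418189_s_at and 1438403_s_at, Kdm5a and Rest 1425565_at, but not for Malat1 1452378_at (0.14, -0.21 and -0.21 in runs 1 to 3 and 0.07 in run 4). For Malat1 1438403_s_at the difference within runs 1 to 3 was -0.99, -0.32 and 0.19, and in run 4 3.17. Kdm5a had -0.26, -0.27 and -0.24, and in run 4 0.86, while Rest 1425565_at had -0.08, 0.05 and 0.12, and in run 4 0.37. Each run 4 value rests on 2 arrays per group, all of them high in B lymphocyte genes, and the difference between runs was not tested. Pabpn1 1415728_at differed the other way, with -0.18, 0.11 and -0.17 in runs 1 to 3 and -1.06 in run 4.

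The arrays highest in Malat1 recurred across its probe sets. AL replicate 5 was the highest or among the 4 highest in all 5 Malat1 probe sets, and it was also the highest in Kdm5a (433) and in Rest 1425565_at (475). CR+EX replicate 8 was among the 4 highest in 4 of the 5 Malat1 probe sets and had the next highest Kdm5a signal (431).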
